A study of Homo sapiens with 9 samples.

Results

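Cells given methylated miR-200c were compared with cells given native miR-200c, 1 array against 1 array, chosen by their titles out of 9 arrays in the series. All cells belonged to RKO, an established colorectal cancer line of human origin, in which exon 5 of DICER had been disrupted. DICER trims hairpin precursors to the mature miRNA. How much DICER activity and how much miRNA of their own the disrupted cells keep was not measured here. The methylated group received a methylated double-stranded RNA oligonucleotide of miR-200c, the native group received the unmodified oligonucleotide, and the control group received the oligonucleotide labelled negative control. All 3 groups carried the DICER disruption, were treated by lipofection and gave RNA after 48 h. The other 6 arrays hold methylated and native miR-21, let7a and miR-17 in the same cells. The labels name neither the methylated base nor the strand that carries it, and they do not say whether the disrupted cells are 1 clone. The design asks how modification of the RNA affects a miRNA, so 2 questions were put to this pair: whether the transcripts that were low with native miR-200c were as low with the methylated form, and which transcripts differed between the forms.

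A miRNA guides an Argonaute protein to messenger RNAs that pair with its seed, the bases near its 5′ end, and such messengers are translated less and decay sooner. The miR-200 family is known for keeping epithelial cells epithelial by repressing ZEB1 and ZEB2, transcription factors that switch off E-cadherin, and miR-200c also represses several actin-binding proteins. A methyl group on a base can change how that base pairs or how a protein holds the RNA. The sequences below are RefSeq's (GRCh38.p14), 5′ to 3′, with the seed (bases 2 to 8) in capitals, and they are shown because the bases open to methylation differ along the strand and between family members. The mature miR-200c-3p lies at chr12:6963742-6963764 on the plus strand.
hsa-miR-200c-3p: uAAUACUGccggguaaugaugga
hsa-miR-200c-5p: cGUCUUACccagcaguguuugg
hsa-miR-200b-3p: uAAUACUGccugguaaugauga
hsa-miR-429: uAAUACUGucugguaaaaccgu
hsa-miR-141-3p: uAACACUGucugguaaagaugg
hsa-miR-200a-3p: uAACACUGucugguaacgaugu

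Of the mature miRNAs in the RefSeq table, 3 share the seed of miR-200c-3p, namely miR-200c-3p itself, miR-200b-3p and miR-429. The seeds of miR-141-3p and miR-200a-3p differ from it by U4C, counted from the 5′ end. The miR-200c-3p strand has 7 adenines and 3 cytosines. Its cytosines stand at positions 6, 9 and 10, so 1 of the 3 is in the seed. The passenger strand miR-200c-5p has 3 adenines and 6 cytosines.

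The 2 miR-200c arrays were not equally bright. Probes above background, meaning over the mean plus 2 SD of the array's own blank spots, made up 78.2% of 24460 probes on the methylated array, 69.4% on the native array and 70.0% on the control array, and the first is the highest and the second the lowest of the 9. The blank spots averaged 36.7 on the methylated array, 43.1 on the native array and 46.8 on the control array. Intensities were made comparable by background correction and quantile normalization and are given as log2 normalized intensity for 16072 features, a feature being a gene or a probe without a gene name. The epithelial markers EPCAM, CDH1, KRT18, CDX2, VIL1, KRT20 and LGALS4 were above background on both miR-200c arrays. KRT8 and KRT19 were not analysed here. Of 11 markers of blood, immune, fibroblast and endothelial cells, the 3 that passed the filter were CD3E, CD14 and DCN, and these differed between the forms by 0.020 to 0.079 on the log2 scale. DICER1 was at 6.74 on the methylated array, 6.68 on the native array and 6.71 on the control array, a probe whose place relative to the disrupted exon was not analysed here. Each group is 1 array, so no difference between the 2 forms has a replicate of its own.

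Most of the transcripts that were lowest with miR-200c were low with both forms. In bulk RNA, fewer cells with a transcript and less of it per cell cannot be told apart. MCFD2, a cargo receptor for secreted proteins, was at 8.08 on the methylated array and 8.01 on the native array, against 10.44 on the control array. TMX1, a thioredoxin-like enzyme of the endoplasmic reticulum, was at 8.69 on the methylated array and 8.48 on the native array, against 10.97 on the control array. CFL2, cofilin 2, which severs actin filaments, was at 7.13 on the methylated array and 7.19 on the native array, against 9.40 on the control array. For TMX1 and CFL2 both miR-200c arrays lay below the other 7, which spanned 10.80 to 11.12 for TMX1 and 7.98 to 9.40 for CFL2. For MCFD2 they did so narrowly, as the other 7 spanned 8.22 to 10.66, with miR-17 methylated at 8.22. POGLUT2, a glucosyltransferase of the endoplasmic reticulum, was at 6.53 with the methylated form and 6.52 with the native form, against 8.72 on the control array. AP1S2, a subunit of a clathrin adaptor, was at 6.88 with the methylated form and 6.81 with the native form, against 8.88 on the control array. OSTM1, a lysosomal membrane protein, was at 6.88 with the methylated form and 6.95 with the native form, against 8.86 on the control array. In these last 3 genes the 2 miR-200c arrays were within 0.08 of each other and about 2 log2 units under the control. All 3 were dim on the miR-200c arrays, at 6.52 to 6.95, where the background correction pulls values together.

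The next genes in this order behaved in the same way. Relative to the control the membrane protein EMP1 stood at -1.96 with the methylated form and -1.94 with the native form. The cargo exporter CNIH4 stood at -1.92 with the methylated form and -2.08 with the native form. The Wnt receptor FZD6 stood at -1.92 with the methylated form and -1.82 with the native form. CHMP5, which takes part in membrane scission, and SUMO3, a small protein attached to other proteins, were slightly lower with the methylated form. CHMP5 stood at -1.87 with the methylated form and -1.73 with the native form, and SUMO3 at -1.76 with the methylated form and -1.60 with the native form. Of the 12 lowest named genes on the methylated array, from which this order was taken, 11 differed by less than 1.2-fold between the forms. The exception was PDCD10, which is described below. Of the 16 genes among the 12 lowest on either array, 11 differed by less than 1.2-fold. The native array added CCT4, its lowest gene (-0.39 methylated, -2.97 native), and TOR4A (-0.69 methylated, -2.66 native). It also added MXRA7 (0.018 methylated, -2.42 native) and CNN3 (-1.28 methylated, -2.07 native).

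**Figure D1:**
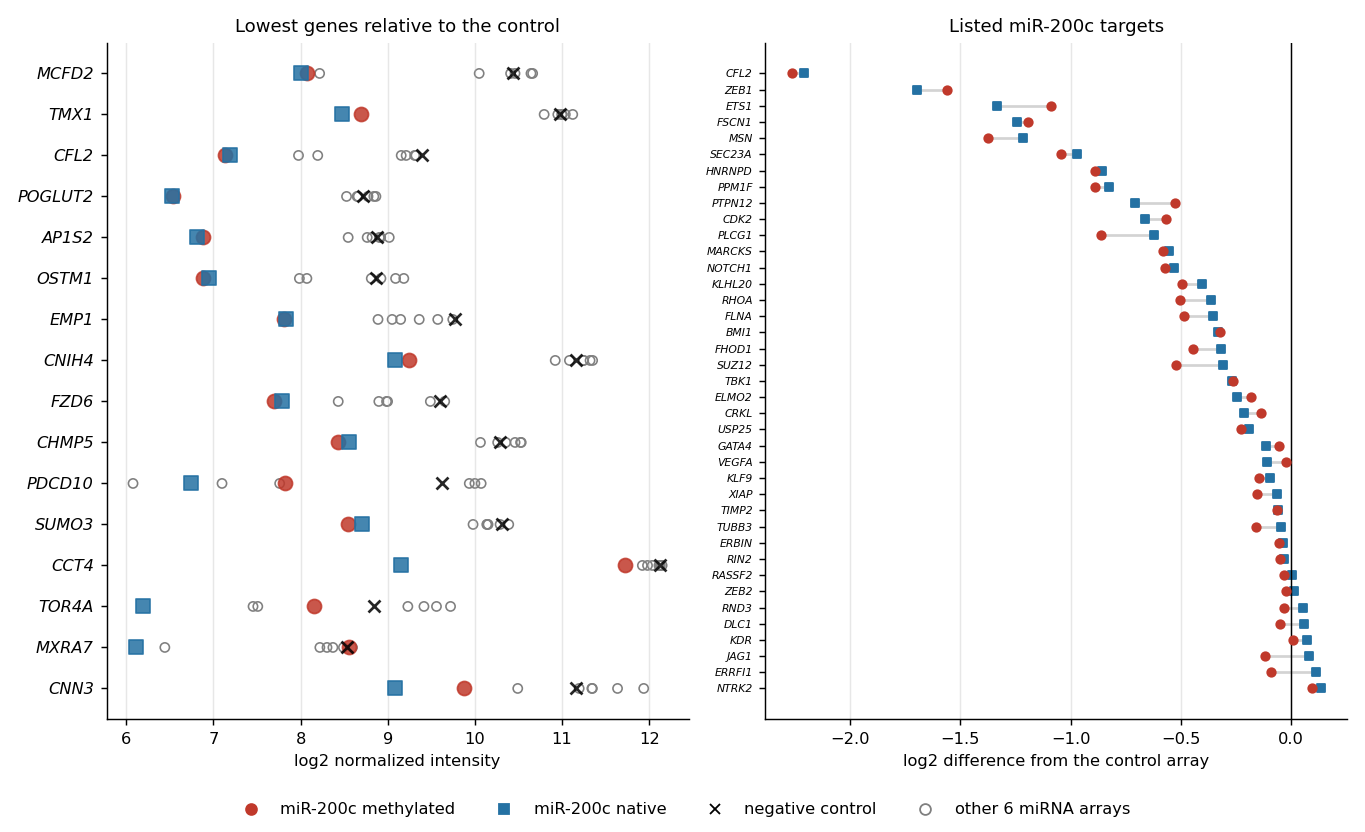
Left, log2 normalized intensity (horizontal axis) of the 16 genes that were among the 12 lowest relative to the control on either miR-200c array, for all 9 arrays. Right, log2 difference from the control array for the 39 measured genes of the miR-200c target list; red circles are the methylated form, blue squares the native form, and grey lines join the forms of a gene. In the left panel the red and blue marks nearly coincide except for PDCD10, CCT4, TOR4A, MXRA7 and CNN3, and on the right every gene lies within 0.25 of its partner.

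Listed targets of miR-200c, assembled from the literature on the family, were also low with both forms. Of 49 listed genes 39 passed the filter on low values. The median difference from the control was -0.26 on the methylated array and -0.27 on the native array, and in the authors' deposited table, where all features were higher on the methylated array by 0.60 in the median, it was 0.075 (methylated) and -0.58 (native) as deposited and -0.36 (methylated) and -0.44 (native) once each array was centred. The median over all features was 0.013 on the methylated array and 0.016 on the native array. Below the control were 37 of 39 genes on the methylated array and 31 of 39 on the native array, where 45.1% of all features lay below it on the methylated array and 44.3% on the native array. At least 2-fold lower than the control were 6 listed genes with the methylated form and 5 with the native form. Both differences share the control array, so they are given side by side and not correlated.

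ZEB1, the best-known target, was at 7.92 with the methylated form and 7.78 with the native form, against 9.47 on the control array. ZEB2 was dim, at 6.03 with the methylated form and 6.07 with the native form, against 6.05 on the control array. The actin-bundling FSCN1 (fascin) was at 6.83 with the methylated form and 6.78 with the native form, against 8.03 on the control array. MSN (moesin), which ties actin to the membrane, was at 6.45 with the methylated form and 6.61 with the native form, against 7.82 on the control array. Both forms thus showed the same actin-linked targets low, with CFL2 the lowest of the list. SEC23A, of the coat of vesicles leaving the endoplasmic reticulum, stood at -1.04 from the control with the methylated form and -0.97 with the native form. The transcription factor ETS1 stood at -1.09 with the methylated form and -1.33 with the native form. The phosphatase PPM1F stood at -0.89 with the methylated form and -0.83 with the native form. The kinase-signalling enzyme PLCG1 stood at -0.86 with the methylated form and -0.62 with the native form. PLCG1 and ETS1 were the 2 listed genes with the widest gap between the forms, PLCG1 lower by 0.24 and ETS1 higher by 0.24 on the methylated array.

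All 39 targets lay within 1.2-fold between the forms, which is near the share of all features, 93.3%. The list was not matched to all features on intensity, with which the spread grows. The median methylated minus native difference was -0.039 for the list and -0.010 for all features. Lower with the methylated form were 28 of 39 targets, or 71.8%, beside 54.8% of all features. When each array was centred within blocks of spots, the median of the list was 0.00057. The other listed genes, such as FN1, WASF3 and QKI, were not analysed here.

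The whole set of low transcripts was then compared. Relative to the control, 85 features were at least 2-fold lower on the methylated array, or 0.548% of 15523 features above background on the control, and 109 on the native array, or 0.702%. Choosing features on 1 array favours that array, so both choices are given. The 85 features chosen on the methylated array had median differences of -1.26 with the methylated form and -1.22 with the native form. The 109 features chosen on the native array had median differences of -1.09 with the methylated form and -1.22 with the native form. Chosen on the methylated array, 80.0% differed by less than 1.2-fold between the forms, and chosen on the native array 66.1% did. Both miR-200c arrays lay below the other 7 in 71 of the 85 features and in 89 of the 109.

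The smaller fall of the native-chosen features with the methylated form was uneven over the slide. The slide has 24 blocks of spots, and 46 of the 109 features lie in blocks 19 to 24, which hold 24.4% of the features above background on both arrays. In those 46 features the median methylated minus native difference was 0.44. In the 63 features of the other blocks it was 0.017. Of the 19 native-chosen features that were at least 1.5-fold higher with the methylated form, 18 lie in blocks 19 to 24. These blocks were singled out after the values were seen, so a larger difference inside them is partly built in by that choice. The block medians of methylated minus native over all kept probes ran from 0.038 in block 20 to 0.19 in block 24 within this range. The part of slide position in the smaller fall was not tested. Over all 109 features the median difference was 0.11, and in the authors' deposited table it was 0.84 as deposited and 0.25 once each array was centred. For the features chosen on the methylated array, the median difference was 0.14 in the 17 features inside these blocks and -0.064 in the 68 outside them.

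A second comparison used references that share no array. Methylated miR-200c was set against the mean of the 3 other methylated arrays, and native miR-200c against the mean of the 3 other native arrays. The arrays labelled miR-17 methylated and let7a methylated each resemble the native array of the other miRNA, but a mean over all 3 is the same whichever of them holds which miRNA. By this measure 79 features were at least 2-fold lower with the methylated form (0.492% of 16072) and 101 with the native form (0.628%). They had 61 features in common, 77.2% of the first list and 60.4% of the second. Medians were -1.25 with the methylated form and -1.22 with the native form for the 79 features, and -1.12 with the methylated form and -1.25 with the native form for the 101. The median methylated minus native difference in fall over the 101 native-chosen features was 0.15. It was 0.29 without the let7a arrays, 0.25 without the miR-17 arrays and 0.23 with the blank mean subtracted. The values without let7a or miR-17 arrays rest on those labels being right, because the references then no longer hold both. In the authors' deposited table the median difference was 0.92 as deposited and 0.32 once each array was centred. Of 24 features at least 3-fold lower with the native form, 10 were so with the methylated form too, and the median difference was 0.35. The 9 features past -2 with the native form had medians of -1.56 with the methylated form and -2.50 with the native form. Without blocks 19 to 24, which were singled out after the values were seen, the median difference over the remaining 54 native-chosen features was 0.012. Across all features Pearson's r between these differences was 0.70 and Spearman's rho 0.55. With 1 of the other miRNAs left out of both references, r was 0.69 for miR-21, 0.61 for let7a and 0.62 for miR-17. For let7a and miR-17 these values of r too rest on the labels. These are correlations across genes, which are not independent replicates.

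**Figure D2:**
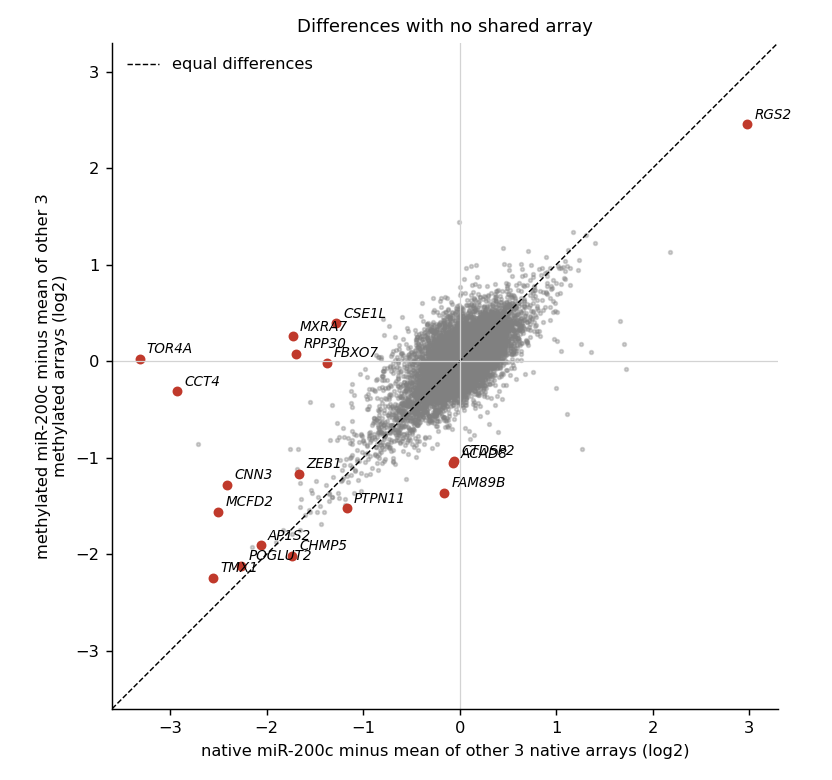
Each point is 1 of 16072 features; the horizontal axis is native miR-200c minus the mean of the other 3 native arrays and the vertical axis is methylated miR-200c minus the mean of the other 3 methylated arrays, both in log2 units, with named genes in red. POGLUT2 (-2.12 methylated, -2.26 native) and AP1S2 (-1.91 methylated, -2.06 native) lie close to the dashed line of equal differences, TMX1 (-2.24 methylated, -2.56 native) and RGS2 (2.46 methylated, 2.98 native) lie nearer to 0 with the methylated form, and CCT4, TOR4A, MXRA7, RPP30, CSE1L and FBXO7 are at least 2-fold lower with the native form alone and FAM89B, ACAD8 and CTDSP2 with the methylated form alone.

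Among the genes low against their own references, some were as low or lower with the methylated form. CHMP5 was at -2.01 with the methylated form and -1.73 with the native form. PTPN11, the phosphatase SHP2, was at -1.52 with the methylated form and -1.17 with the native form. MAPRE1, which binds growing microtubule ends, was at -1.34 with the methylated form and -1.02 with the native form. FZD6 was at -1.49 with the methylated form and -1.19 with the native form. ANAPC13, a subunit of the anaphase-promoting complex, was at -1.36 with the methylated form and -1.10 with the native form. Other genes were lower with the native form. CNN3, an actin-binding calponin, was at -1.28 with the methylated form and -2.41 with the native form. MCFD2 was at -1.56 with the methylated form and -2.50 with the native form, and ZEB1 at -1.17 with the methylated form and -1.66 with the native form. For these genes the 2 miR-200c arrays themselves differed by only 0.068 (MCFD2) and 0.14 (ZEB1), and the rest of the gap lies in the reference arrays. CALD1, which binds actin and myosin, was at -1.11 with the methylated form and -1.68 with the native form, and the protease PLAU at -1.27 with the methylated form and -1.65 with the native form. Between the miR-200c arrays CNN3 differed by 0.79, CALD1 by 0.36 and PLAU by 0.31, and the probes of these 3 genes lie in block 24 (CNN3) and block 22. A second PLAU probe differed by 0.04. PLAU on the methylated miR-200c array, at 10.24, was not below let7a methylated, at 10.18. At the other end were genes low with the methylated form alone. CTDSP2 was at -1.03 with the methylated form and -0.06 with the native form, ACAD8 at -1.06 with the methylated form and -0.07 with the native form, and FAM89B at -1.36 with the methylated form and -0.16 with the native form. These 3 probes lie close together in block 8 of the slide, as described below. The zinc-finger gene ZNF672, at -1.22 with the methylated form and -0.55 with the native form, and the annexin ANXA6, at -1.06 with the methylated form and -0.67 with the native form, showed smaller gaps. Between the miR-200c arrays this ZNF672 probe differed by -0.49 and a second one by -0.13.

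The named genes highest above the control were high with both forms. An unnamed probe was not, at 1.79 from the control with the methylated form and -0.30 with the native form. For this probe the control, at 8.97, was the lowest of the 7 arrays without miR-200c. Set against own-form references, the probe stood at -0.86 with the methylated form and -2.70 with the native form. Against own-form references a smaller share of the rises than of the falls was in both lists, a contrast that was not tested. RGS2, which curbs signalling by G proteins, was at 10.86 with the methylated form and 11.35 with the native form, against 8.68 on the control array and 8.05 to 8.68 on the 7 arrays without miR-200c. C3orf52, a membrane protein, was at 8.69 with the methylated form and 8.62 with the native form, against 6.90 on the control array. RHOF, a small GTPase that shapes actin protrusions, was at 9.65 with the methylated form and 9.42 with the native form, against 8.23 on the control array. For all 3 genes both miR-200c arrays lay above the other 7. PEX5, the import receptor of peroxisomes, was at 8.98 with the methylated form and 9.44 with the native form, against 8.05 on the control array. POP5, a ribonuclease P subunit, and SNU13, a small nucleolar RNP protein, were also higher than the control. POP5 stood at 1.58 with the methylated form and 1.72 with the native form, and SNU13 at 1.34 with the methylated form and 1.54 with the native form. For both genes the control array was the lowest of all 9, and the miR-200c arrays stood 0.18 to 0.47 above the other miRNAs of their own form. In all, 27 features were at least 2-fold higher than the control with the methylated form (0.168% of 16056) and 27 with the native form (0.175% of 15387). Against own-form references 15 features were at least 2-fold higher with the methylated form (0.0934% of 16056) and 33 with the native form (0.214% of 15387), and 8 were in both lists, 53.3% of the first and 24.2% of the second. The 33 native-chosen features had medians of 0.86 with the methylated form and 1.12 with the native form. At 3-fold 5 features were higher with the native form, at medians of 0.41 with the methylated form and 1.72 with the native form, and RGS2 alone was past 3-fold with both.

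Set directly against each other, the 2 forms gave few differences. Of 15384 features above background on both arrays, 10 were at least 2-fold higher with the methylated form (0.065%) and 2 at least 2-fold lower (0.013%). With the blank mean subtracted in place of normexp, 33 were higher and 15 lower, and in the authors' deposited table the split was 1221 higher and 1 lower as deposited, or 52 higher and 12 lower once each array was centred. At 1.5-fold 84 were higher and 14 lower, and 93.1% of features lay within 1.2-fold. The robust SD of the methylated minus native difference, from the median absolute deviation, was 0.0873, the second smallest of the 36 pairs that the 9 arrays make. For miR-21, the pair nearest to it at 0.0867, 5 features were at least 2-fold higher and 11 lower with the methylated form (0.0321% and 0.0706% of 15579). The counts were larger for the arrays labelled let7a, with 46 higher (0.291%) and 84 lower (0.531%), and for those labelled miR-17, with 91 higher (0.571%) and 41 lower (0.257%). Because each of these 2 methylated arrays resembles the native array of the other miRNA, the counts may set different miRNAs against each other. Paired across the labels, let7a methylated against miR-17 native differed at least 2-fold in 19 features and miR-17 methylated against let7a native in 33, where the pairs as labelled differed in 130 (let7a) and 132 (miR-17). The SD of the miR-200c difference grew with intensity, at 0.052 in the dimmest of 8 equal bins of features and 0.22 in the brightest.

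Of the 10 named genes highest with the methylated form, 9 had the native array below all 8 others. CCT4, a subunit of the chaperonin that folds actin and tubulin, was at 11.73 on the methylated array and 9.15 on the native array, against 12.12 on the control array and 11.92 to 12.15 over the 7 other arrays. Both miR-200c arrays were thus below the other 7 for CCT4, the methylated one by far less. RPP30, a ribonuclease P subunit, was at 7.99 on the methylated array and 6.24 on the native array, against 8.04 on the control array. FBXO7, which selects proteins for ubiquitination, was at 10.01 on the methylated array and 8.64 on the native array, against 9.76 on the control array. In each of these 3 genes the native array was below the other 8. TOR4A, a torsin-family ATPase, was at 8.15 on the methylated array and 6.19 on the native array, against 8.85 on the control array and 7.46 to 9.72 over the 7 others. SIRT3, the mitochondrial deacetylase, was at 7.58 on the methylated array and 5.94 on the native array, against 6.99 on the control array. DCAF7, a scaffold protein, was at 8.13 on the methylated array and 6.94 on the native array, against 8.02 on the control array. For TOR4A, SIRT3 and DCAF7 too the native array was the lowest of the 9.

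For some of these genes a second probe did not repeat the difference. MXRA7 was at 8.56 on the methylated array and 6.12 on the native array, against 8.54 on the control array, while its other probe gave a methylated minus native difference of 0.14 where this one gave 2.44. The miR-17 native array was also low for that MXRA7 probe, at 6.44. CSE1L, the exporter that recycles importin, was at 10.63 on the methylated array and 8.98 on the native array, against 10.21 on the control array. Its other probe differed by -0.18 where this one differed by 1.65, and for SIRT3 the other probe gave 0.04 where this one gave 1.64. GTF2A2, of the general transcription factor TFIIA, differed by 0.89 and PDCD10, an adaptor of the cerebral cavernous malformation complex, by 1.09. PDCD10 was at 7.83 on the methylated array and 6.74 on the native array, against 9.62 on the control array, so it was low with both forms. This was not particular to miR-200c, since miR-21 (7.10 methylated, 6.08 native) and native let7a (7.76) were low too. Methylated minus native was also 1.02 for miR-21 and 2.18 for the arrays labelled let7a. An unnamed probe was at 10.77 on the methylated array and 8.67 on the native array, against 8.97 on the control array and up to 11.92 on the others.

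The 10 lowest genes had the opposite pattern, with the methylated array below all 8 others. FAM89B was at 6.95 on the methylated array and 8.06 on the native array, against 8.28 on the control array. ACD, the shelterin protein TPP1 that protects chromosome ends, was at 7.03 on the methylated array and 8.05 on the native array, against 7.58 on the control array. ACAD8, an enzyme of valine breakdown, was at 6.88 on the methylated array and 7.84 on the native array, against 7.99 on the control array. These were followed by LRPPRC, which stabilizes mitochondrial messengers, at -0.90, the checkpoint protein RAD1 at -0.84, the phosphatase CTDSP2 at -0.84, ARFIP2 at -0.77, the kinase PRKCZ at -0.72, the mitochondrial transcription factor TFB2M at -0.70 and the pyruvate carrier subunit MPC1 at -0.63. A second CTDSP2 probe differed by -0.10. PRORP, of mitochondrial ribonuclease P, was not well above background on the methylated array and was at 7.85 on the native array, which puts it at least 4.08-fold lower with the methylated form. That bound sets the native value against the dimmest signal counted as above background on the methylated array.

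**Figure D3:**
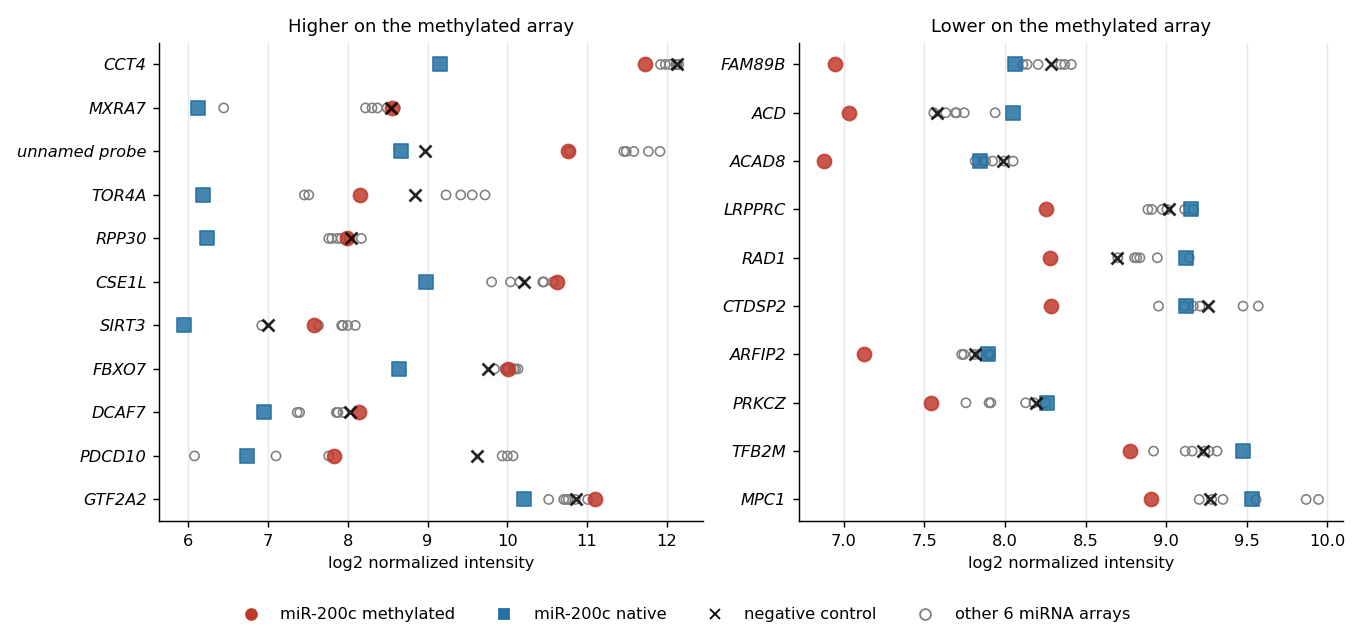
Log2 normalized intensity (horizontal axis) on all 9 arrays for the features with the largest differences between the forms, 11 higher with the methylated form on the left and 10 lower on the right. On the left the blue squares (native) stand apart from the other marks for most genes, and on the right the red circles (methylated) lie left of every other array for each gene.

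These differences were not spread evenly over the slide. Of the 10 lowest genes 9 have their probes in block 8, in columns 51 to 57 and rows 1 to 3, and MPC1 lies in block 11. ACAD8 had neighbouring spots with a median methylated minus native difference of -0.84, and FAM89B of -0.60. CCT4 and RPP30 lie side by side in block 21 (row 2, columns 33 and 34), and the KLHDC4 spot that touches them differed by 1.59. Of the 10 features at least 2-fold higher, 7 lie in the first or last row of a block, where 18.2% of features lie. Of the 12 features past 2-fold in either direction, 5 had neighbours shifted by at least 0.25 in the median, beside 3.69% of all features.

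**Figure D4:**
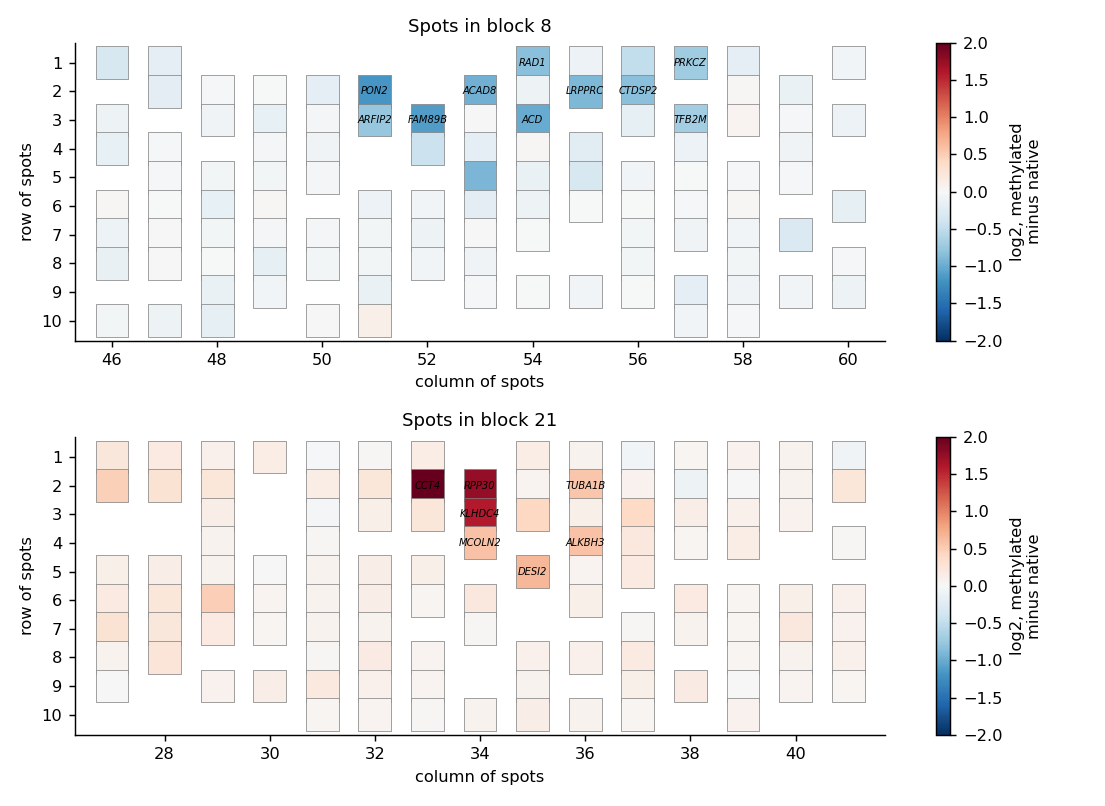
Spots of 2 parts of the slide by column (horizontal axis) and row (vertical axis), each square a kept probe coloured by its log2 methylated minus native difference and named where that is at least 0.55 in size. In block 8 the blue squares from PON2 to PRKCZ sit together in rows 1 to 3, and in block 21 CCT4, RPP30 and KLHDC4 touch.

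The blocks as a whole drifted as well. The median methylated minus native difference was -0.12 in block 10 and 0.19 in block 24. In block 24 the methylated array stood at 0.084 and the native array at -0.11 relative to the median of the other 8 arrays. Block medians of the 3 other pairs all lay between -0.072 and 0.055. Of the 84 features at least 1.5-fold higher with the methylated form, 79 lie in blocks 19 to 24 and 56 of them in block 24. Of the 14 that were at least 1.5-fold lower, 10 lie in block 8. After each array was centred within its blocks, 30 features were at least 1.5-fold higher and 12 lower. Without blocks 19 to 24, 2 features were at least 2-fold higher with the methylated form, TOR4A and the unnamed probe, and 2 lower, FAM89B and ACD.

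**Figure D5:**
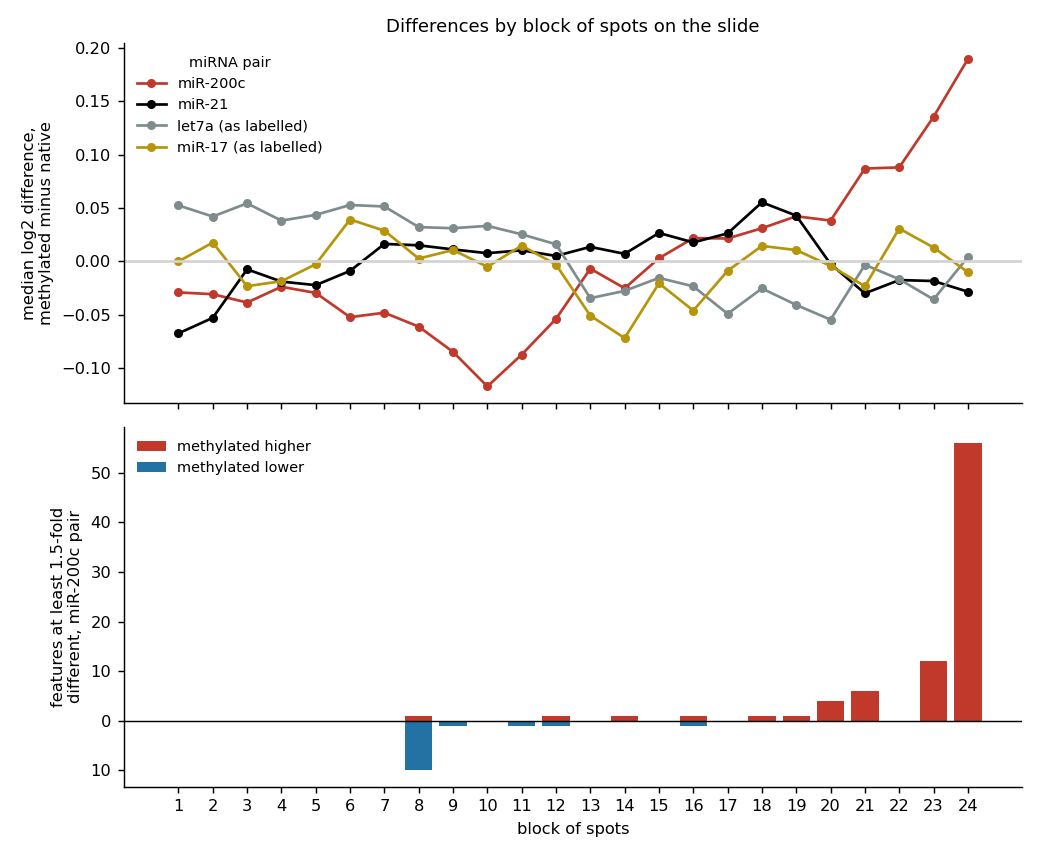
Top, median log2 methylated minus native difference (vertical axis) in each of the 24 blocks of spots (horizontal axis) for the 4 pairs. Bottom, number of features at least 1.5-fold different between the forms of miR-200c in each block, those higher with the methylated form upward and those lower downward. The miR-200c line climbs to 0.19 in block 24, where 56 of the 84 higher features lie, while the other 3 lines stay within -0.072 to 0.055.

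A test was possible only by borrowing the spread between the forms of the other 3 miRNAs, in a limma fit over the 8 miRNA arrays with 2 residual degrees of freedom. Of the 3 pairs that give this spread, those labelled let7a and miR-17 had SDs between the forms of 0.26 each as labelled, against 0.16 for each methylated array set against the native array of the other miRNA and 0.14 for miR-21. A mislabelling of these arrays would change the residual spread and so the number of features that pass, and no fit with other labels was made. No feature of 16072 passed a Benjamini-Hochberg adjusted p of 0.05 (0%), and 221 had an unadjusted p under 0.05. If no feature differed, 803.6 of the 16072 would be under it by chance, more than were seen. The smallest adjusted p was 0.184, for PITPNM2, which was at 6.56 on the methylated array and 5.96 on the native array, against 6.11 on the control array. CCT4 had a difference of 2.58 with an SE of 0.22 and an adjusted p of 0.287. RPP30 had a difference of 1.75 with an SE of 0.21 and an adjusted p of 0.711. SAA4 and an unnamed probe, with differences of 0.50 and -0.59, complete the 5 smallest p-values. When the form difference of miR-200c was set against that of the other 3 miRNAs in the same fit, no feature passed either (0%). Unadjusted p was under 0.05 for 237 features in that contrast, also fewer than the 803.6 by chance. The smallest adjusted p was 0.432, again for PITPNM2. Without the 2 miR-17 arrays 4 features passed for the form difference, CCT4, MXRA7, PITPNM2 and LMOD2, with adjusted p from 0.018 to 0.021, and TOR4A and MXRA7 passed for the difference from the other miRNAs. With no filter on low values 20 features passed for the form difference and 17 for the difference from the other miRNAs. In the authors' deposited table the counts were 29 and 22 as deposited, and none in either contrast once each array was centred. After that centring 344 and 323 features had an unadjusted p under 0.05, also fewer than by chance.

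In several other gene groups a smaller share lay within 1.2-fold between the forms than among the 39 targets, all of which did. Some of these shares were near that of all features. Within 1.2-fold were 30 of 33 actin cytoskeleton genes (90.9%), 32 of 35 secretory pathway genes (91.4%), 23 of 26 RNA methylation genes (88.5%), 17 of 22 p53 targets (77.3%), 17 of 22 chaperonin and nuclear import genes (77.3%) and 6 of 9 ribonuclease P and MRP subunits (66.7%), beside 93.3% of all features. These shares are descriptions, were not tested and were not matched to all features on intensity. The lists were chosen with earlier results of these data known. CCT4 is in the chaperonin and nuclear import list and RPP30 in the ribonuclease P and MRP list. Both are among the genes with the largest differences between the forms, so low shares in those lists are partly built in. The RNA methylation list also holds DNMT1, a DNA methyltransferase. The actin cytoskeleton genes had a median of -0.42 from the control with the methylated form and -0.39 with the native form. Below the control were 27 of 33 with the methylated form (81.8%, beside 45.1% of all features) and 25 with the native form (75.8%, beside 44.3%). MYH9, a non-muscle myosin, was lowest for methylated minus native at -0.41 and CNN3 highest at 0.79. Of 35 genes of the secretory pathway, 23 were below the control with each form (65.7%, beside 45.1% of all features with the methylated form and 44.3% with the native form), at medians of -0.11 with the methylated form and -0.14 with the native form. Their differences between the forms ran from -0.33 for the coat protein SEC24C to 0.56 for the coat protein COPZ1. At least 2-fold lower than the control were 5 actin genes with either form, and 5 secretory genes with the methylated form and 4 with the native form, where 0.548% of features were so with the methylated form and 0.702% with the native form. Because the lists were chosen with earlier results known, the actin and secretory counts below the control may partly reflect that choice.

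Of epithelial genes 20 of 21 and of mesenchymal genes 11 of 11 lay within 1.2-fold between the forms, where 93.3% of all features did. CDH1, E-cadherin, was at 7.88 with the methylated form and 7.69 with the native form, against 7.77 on the control array. EPCAM was at 7.67 with the methylated form and 7.73 with the native form, against 7.38 on the control array, and KRT18 at 11.49 with the methylated form and 11.36 with the native form, against 11.04 on the control array. VIM, vimentin, was at 9.89 with the methylated form and 9.94 with the native form, against 9.52 on the control array. Epithelial genes ran from -0.21 for the junction protein TJP1 to 0.27 for the claudin CLDN3, and mesenchymal genes from -0.23 for the integrin ITGA5 to 0.14 for ZEB1. The group medians of methylated minus native were -0.014 over 21 epithelial genes and -0.031 over 11 mesenchymal genes.

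Genes that answer double-stranded RNA did not differ much between the forms. The ubiquitin-like ISG15 was at 10.56 with the methylated form and 10.62 with the native form, against 9.94 on the control array. The RNA sensor IFIH1 was at 6.63 with the methylated form and 6.54 with the native form, against 6.49 on the control array. IFIT1 was not well above background on any of the 3 arrays. Of 23 such genes measured, 14 were lower (60.9%, beside 54.8% of all features) and 9 higher with the methylated form, from -0.32 for the kinase EIF2AK2 to 0.12 for IRF3. AGO2, the Argonaute that cuts RNA, was at 10.11 with the methylated form and 10.05 with the native form, against 10.54 on the control array.

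In the remaining lists the gene highest with the methylated form usually had its probe in the last blocks of the slide. That gene lies in blocks 19 to 24 in 11 of 13 lists other than markers. In the small RNA machinery it was the nuclease XRN2 at 0.58, with the exporter XPO5 lowest at -0.24. In the RNA methylation list it was the RNA cytosine methyltransferase NSUN2 at 0.52, with DNMT1, a DNA methyltransferase on that list, lowest at -0.27. In DNA replication it was the clamp loader subunit RFC2 at 0.61, with RRM1 lowest at -0.24. Among mitosis genes it was BIRC5 at 0.38, with MAD2L1 lowest at -0.32, and among p53 targets SESN1 at 0.52, with SESN2 lowest at -0.28. Among chaperonin and nuclear import genes KPNA2 was lowest at -0.38, and among ribonuclease P and MRP subunits RPP14 was lowest at -0.26, while CCT4 and RPP30 were highest. Of these named genes XRN2, NSUN2, RFC2 and SESN1 have their probes in block 24. The part of slide position in single differences was not tested beyond the values given.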

How the data were processed

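Total RNA was amplified, labelled with Cy5 and hybridised to 1-colour 3D-Gene (Toray) arrays, per the labels. The authors deposited per array a raw median spot intensity read at 635 nm, per the file headers, with no background subtracted. The authors' deposited table holds a processed intensity per probe on a linear scale, with dim probes empty. No label or header says how that table was made. Against the spots of its array, every column had a median of 25 among its non-empty probes, no centring of genes, and ran in the same direction. It was used only as an alternative.

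Spots were background corrected with normexp (offset 50, limma 3.58.1, R 4.3.3). Control spots were dropped, as were 9 outlier-marked probes. Quantile normalization used all 9 arrays, followed by log2. A probe above the mean plus 2 SD of its array's blank spots on at least 5 of 9 arrays was kept (17684 of 24460), and a gene took its probe with the highest mean. Of 24460 probes 17238 had a current symbol in GRCh38.p14, 2899 were updated, 99 kept an old symbol and 4224 had none. Of 16072 features 13391 had a symbol. The number of arrays limits the precision.

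Differences between single arrays carry no test. The limma fit had the miRNA (4 levels), the form of miR-200c and the form of the other 3 miRNAs as terms and assumes that the miR-200c arrays vary like the others and that the let7a and miR-17 labels, kept as given, are right. The fit was tested on simulated data. Nothing in the labels marks arrays as separate cultures of 1 treatment, so a p-value here reflects the spread among these arrays, which may be technical.

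The genes named were the 10 highest and 10 lowest between the forms, the 12 lowest and 5 highest against the control on either array, the genes that differ most and least against their own-form references, every listed target, and the highest and lowest member of each other list with a few fixed markers. PON2, KLHDC4, LMOD2, the unnamed probes and PRORP were named after their values were seen. The comparison, its members and the 16 gene lists were chosen with earlier results of these data known. Alternatives were median scaling, subtraction of the blank mean, an offset of 16, no filter, a filter on all 9 arrays, the median over a gene's probes, other thresholds, other references and leaving out a miRNA. Alternatives on slide position and the centring of the deposited table were added after seeing the data.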

Additional observations from a re-analysis of the deposited data

Results flagged for a closer look

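TOR4A stood out because its difference between the forms ran in opposite directions in different miRNAs. Methylated minus native was 1.97 for miR-200c, -1.72 for miR-21 and -2.10 for the arrays labelled let7a, and the difference between the pairs was not tested by itself. The TOR4A probe lies in the corner of block 14, and the values on the 9 arrays ran from 6.19 to 9.72.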

How the results depend on the processing

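Of 114 values computed under alternatives, 74 kept their direction and size, 37 moved and 3 reversed. No paired analysis was possible because the labels give no replicate numbers; the miRNA itself was a term of the fit. With the blank mean subtracted 33 features were at least 2-fold higher and 15 lower with the methylated form, and the target medians were -0.51 (methylated) and -0.43 (native) from the control. An offset of 16 gave 16 higher. At 1.5-fold there were 84 higher and 14 lower. With no filter the target medians were -0.15 (methylated) and -0.12 (native), and limma called 20 features for the form difference and 17 against the other miRNAs.

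In the authors' deposited table the median of 15950 shared features was 0.60 higher on the methylated than on the native array. That table lists 21456 probes on the methylated array and 18198 on the native array and gives each the same median. As deposited, 1221 features were at least 2-fold higher and 1 lower, the falls were smaller with the methylated form by 0.84 (control) and 0.92 (own-form references), the target medians were 0.53 between the forms, 0.075 (methylated) and -0.58 (native), and limma called 29 and 22 features. Relative to each array's median 52 were higher and 12 lower, the falls were smaller by 0.25 and 0.32, the target medians were -0.36 (methylated) and -0.44 (native), and limma called 0 features in either contrast.

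Chosen on the methylated array the change in fall was -0.050 from the control and -0.048 by own-form references. For genes at least 3-fold lower by own-form references it was 0.35, and with 1 other miRNA left out it was 0.19 to 0.29 (0.29 without let7a, 0.25 without miR-17). The values without let7a or without miR-17 rest on those labels being right. Without the miR-17 arrays limma called 4 features and 2 against the other miRNAs, and the range over the left-out miRNAs was 0 to 4. Alternatives on the slide, chosen after seeing the data, gave 1 feature lower (blocks centred), 6 higher and 1 lower (shifted neighbours left out), 3 higher (edge rows left out), and 2 higher with changes in fall of 0.017 and 0.012 (blocks 19 to 24 left out). The causes of the other changes were not tested. Dim features limit the comparison, because normexp with this offset pulls values near background together.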
